A study of Mus musculus with 8 samples.

Results

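The Serpina3 genes form a cluster of serine protease inhibitor genes on mouse chromosome 12. Values were available for 7 genes that the rule named, Serpina3c, Serpina3f, Serpina3g, Serpina3h, Serpina3k, Serpina3m and Serpina3n, among 20207 genes in all. They were selected on shared family and position, with their levels in CML and normal libraries already known. Differences between CML and normal cells, and the levels themselves, are therefore given as a description with no test.

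RNA was sequenced from 8 libraries of sorted mouse bone marrow. Long-term (LT) stem cells were CD150+CD48-CD135- and KLS+ (c-Kit+, lineage-, Sca-1+), short-term (ST) stem cells were CD150-CD48-CD135- KLS+, and KLS- progenitors lacked Sca-1. Normal cells gave 2 LT-HSC libraries, 1 from mice of 2 months and 1 of 6 months, and 1 ST-HSC and 1 KLS- library, both from mice of 2 months. CML cells gave 2 LT-CML libraries, 1 ST-CML and 1 CML-KLS- library, whose labels give no age. By the methods of the study, CML mice carried Tal1-tTA, a transactivator driven from a haematopoietic promoter, and TRE-BCR-ABL1, and developed disease after doxycycline (DOX) was withdrawn. Their healthy littermates carried Tal1-tTA alone. The labels give C57BL/6 for all libraries, whereas the methods place the CML line on FVB/N and also mention healthy C57BL/6 controls for another assay. Those controls had 2 ages, close to the 2 and 6 months labelled for the normal libraries. The littermates described for cell sorting were younger than 6 months. If the strains of the normal and CML libraries differed, strain and disease cannot be told apart here. Neither source says how many mice made up a library, so the spread between libraries of a group may be technical.

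Serpins are suicide inhibitors. A protease cuts an exposed stretch near the end of the protein, the reactive centre loop, and is then trapped as the serpin changes shape. Mice carry many tandem copies related to human SERPINA3 (antichymotrypsin), several of which are acute-phase genes. Serpina3g, also known as Spi2A, is found inside cells of the haematopoietic system, is a target of NF-kappaB, and inhibits lysosomal cathepsins as well as serine proteases.

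In mm9 the annotation placed 14 Serpina3 genes within 302 kb (chr12:105350934-105652539), of which 10 were protein-coding and 3 were pseudogenes. The files held 8 of them. The members ran, in order, from Serpina3c (chr12:105384592-105392080, minus strand) to Serpina3f (chr12:105452754-105459339), Serpina3g (chr12:105474455-105480149), Serpina3h (chr12:105486115-105491879), Serpina3k (chr12:105576696-105583951), Serpina3m (chr12:105625374-105632467) and Serpina3n (chr12:105644939-105652539), all on the plus strand after the first. Serpina3h was annotated as a processed transcript with no coding frame. The other 6 members were protein-coding.

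In the stretch compared here, the members were less alike in the later part of the loop that meets the protease than in the bases before its hinge. The coding bases of that loop are shown for the 6 coding members, as read 5′ to 3′ from mm9, because they are the part of the coding sequence that faces the protease. Lower case marks 24 bases of the conserved hinge, where the loop begins, and capitals the 51 bases that follow them.
Serpina3c: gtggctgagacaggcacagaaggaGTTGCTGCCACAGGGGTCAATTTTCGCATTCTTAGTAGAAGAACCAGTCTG
Serpina3f: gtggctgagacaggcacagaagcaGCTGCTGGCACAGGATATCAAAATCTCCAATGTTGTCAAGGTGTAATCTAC
Serpina3g: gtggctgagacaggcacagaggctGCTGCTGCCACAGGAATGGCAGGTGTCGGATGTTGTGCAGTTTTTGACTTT
Serpina3k: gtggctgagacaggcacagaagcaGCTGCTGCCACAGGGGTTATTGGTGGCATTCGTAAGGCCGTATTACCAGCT
Serpina3m: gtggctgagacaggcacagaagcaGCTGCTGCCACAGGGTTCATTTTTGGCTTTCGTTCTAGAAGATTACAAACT
Serpina3n: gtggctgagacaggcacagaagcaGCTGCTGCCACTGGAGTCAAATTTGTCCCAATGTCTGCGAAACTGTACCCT

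Each of these stretches lay within 1 exon. That of Serpina3f was at chr12:105458443-105458517 and that of Serpina3g at chr12:105479270-105479344, both on the plus strand. That of Serpina3c was at chr12:105385535-105385609 on the minus strand. The remaining 3 were at chr12:105583467-105583541 (Serpina3k), chr12:105631967-105632041 (Serpina3m) and chr12:105651646-105651720 (Serpina3n). Over the 15 pairs of these genes, ungapped identity was 41.2% to 70.6% (median 52.9%) in the bases in capitals, against 77.8% to 99.0% (median 86.9%) in the 99 coding bases before the hinge. It was 87.5% to 100% (median 95.8%) in the hinge bases in lower case. The bases in capitals were less alike than the 99 before the hinge in 15 of 15 pairs. Serpina3f and Serpina3g, the members with the highest levels, shared 60.8% of their bases in capitals. No hinge was found in the longest annotated Serpina3h transcript.

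Because the genes are close copies, reads can fit more than 1 of them. Of the windows of 100 bases along the longest Serpina3f transcript, 3.6% occurred exactly in another Serpina3 transcript, and 12.9% did so with at most 2 mismatches. The shares were 4.6% and 15.2% for Serpina3g, 4.2% and 22.0% for Serpina3h, and 6.1% and 19.9% for Serpina3m. Of the Serpina3h windows, 21.8% matched Serpina3i, a gene with no values here, with at most 2 mismatches. The exact and mismatched shares were 0.2% and 3.9% for Serpina3n, and 0% and 2.0% for Serpina3c. The part of each value that came from reads of another copy was not tested.

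The labelled populations differed in the genes of their gates. Slamf1, which encodes CD150, stood between 10.7 and 35.45 RPKM in the 4 LT libraries and between 0.955 and 2.874 RPKM in the others. Ly6a, which encodes Sca-1, was at 8.164 and 11.72 RPKM in the KLS- libraries and at 72.43 RPKM or more in the stem cell libraries. Kit was present in all 8. Flt3 and Cd48, whose products were gated against, still reached 61.61 and 41.79 RPKM in ST-HSCs, and 71.6 and 45.15 RPKM in ST-CML stem cells. Flt3 was at 3.948 and 2.519 RPKM in LT-HSCs and 11.93 and 19.24 RPKM in LT-CML stem cells. Cd48 was at 10.45 and 5.169 RPKM in LT-HSCs and 16.83 and 29.48 RPKM in LT-CML stem cells. Summed neutrophil markers (6 genes) ranged from 12.9 RPKM in ST-HSCs to 3870 RPKM in the LT-HSC library of 6 months, and summed erythroid markers (6 genes, of which Hba-a1 was at 0 in every library) from 6.48 to 108 RPKM in stem cells against 820 and 1810 RPKM in KLS- cells. Summed T and NK, macrophage, and basophil and mast markers (5 genes each) were at 87.6 to 291, 6.39 to 13.9 and 23.9 to 54.9 RPKM in stem cells, against 682 to 692, 43.5 to 43.7 and 88.0 to 107 RPKM in KLS- cells. In KLS- cells the erythroid sum was mostly Car1 (804.5 and 1775 RPKM). The T and NK sum there was mostly Nkg7 (691.5 and 679.9 RPKM). Summed B cell markers (5 genes) were at 31.0 to 55.9 RPKM over all libraries, and those of stroma and endothelium (5 genes) at 6.04 to 28.4 RPKM. Summed megakaryocyte markers (4 genes) were at 250 to 428 RPKM in LT libraries and 21.2 to 83.0 RPKM in the others. Their part in the results was not tested. In such bulk samples, fewer cells of a type and less RNA per cell cannot be told apart.

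Serpina3g had the highest level of the members in every library. Serpina3a, Serpina3i and Serpina3j, also coding genes of the cluster, had no values. It stood at 144.9 and 113.3 RPKM in LT-HSCs, 92.99 in ST-HSCs and 23.67 in normal KLS- cells. In CML it stood at 222.8 and 208.2 RPKM in LT stem cells, 150.9 in ST stem cells and 42.36 in KLS- cells. The order was the same in normal and CML cells, LT above ST above KLS-, and each CML library lay above its normal counterpart. It made up 94.9% to 97.7% of the summed RPKM of the members in normal libraries and 82.1% to 83.3% in CML libraries. Among all 20207 genes it ranked between 195 and 287 in CML stem cells and between 347 and 559 in normal HSCs.

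Serpina3f, the member next to it on the side of Serpina3c, was low in normal cells and high in CML cells. It was at 3.816 and 5.994 RPKM in LT-HSCs, 3.881 in ST-HSCs and 0.5592 in normal KLS- cells. In CML it reached 43.2 and 40.03 RPKM in LT stem cells, 30.8 in ST stem cells and 8.082 in KLS- cells. Even the CML-KLS- library lay above every normal stem cell library.

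Serpina3h, the member annotated here without a coding frame, was at the edge of detection in normal cells. Its deposited values implied a length of 2043 bases, against an exon union of 1434 in this annotation. The gene model that was counted may therefore differ from the annotated one. Its levels were 0.0735 and 0.04098 RPKM in LT-HSCs and 0.05208 in ST-HSCs, resting on 3, 2 and 2 reads. No read was found in normal KLS- cells, which allows a level of up to 0.0725 RPKM at 3 reads. The CML libraries held 3.666 and 3.147 RPKM in LT stem cells (155 and 117 reads), 1.025 in ST stem cells (39 reads) and 0.2474 in KLS- cells (9 reads).

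Serpina3c, on the opposite strand at the far side of the cluster, was listed at 0 in all 4 normal libraries, whose floors of 3 reads were at 0.0742 to 0.0943 RPKM. It was at 1.082 and 1.362 RPKM in LT-CML stem cells (38 and 42 reads), 0.8876 in ST-CML stem cells (28 reads) and 0.1658 in CML-KLS- cells (5 reads). Every CML library thus lay above every normal library for Serpina3c, Serpina3h and Serpina3f, whereas CML-KLS- cells lay below the normal stem cells for Serpina3g.

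The remaining 3 members lay at or near 0. Serpina3n, an acute-phase serpin that inhibits granzyme B, was found with 1 read in ST-HSCs, 1 and 5 reads in the LT-CML libraries and 5 in ST-CML stem cells, and was at 0 in the other 4 libraries. Its highest level was 0.1316 RPKM. Serpina3k and Serpina3m, 2 serpins best known from liver, had 1 read each, both in ST-CML stem cells. Their levels there were 0.03244 and 0.0323 RPKM, below the floor of 3 reads. Of the 7 members, 4 (Serpina3c, Serpina3f, Serpina3g and Serpina3h) passed the minimum of a total above 1 RPKM. Serpina3c and Serpina3h passed it through their CML libraries.

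**Figure D1:**
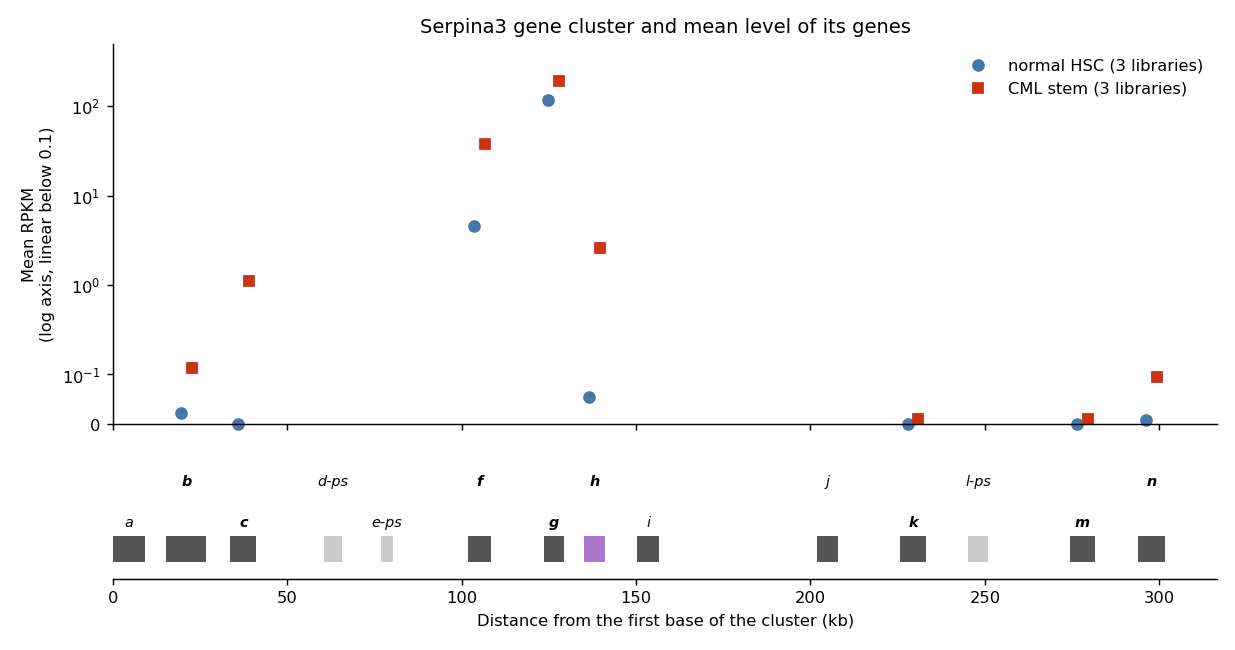
Mean RPKM of each Serpina3 gene of the files in normal HSCs (blue circles) and CML stem cells (red squares), 3 libraries each, against its position in kb from the first base of the cluster. The axis is logarithmic above 0.1 RPKM, and bars below mark coding genes (dark grey), pseudogenes (light grey) and Serpina3h (purple), with genes of the files in bold. The levels of 117 and 194 RPKM belong to Serpina3g, and those at the right end stay under 0.1 RPKM.

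**Figure D2:**
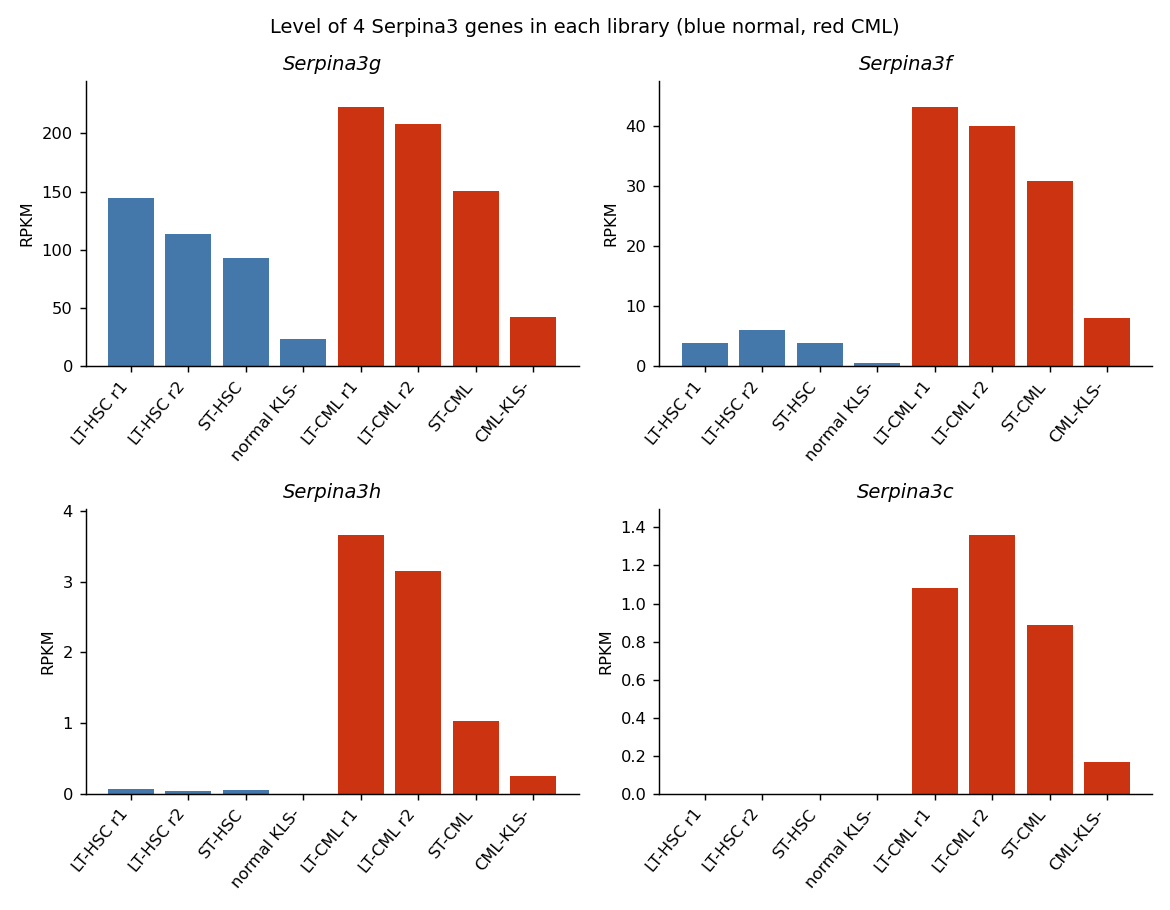
RPKM of Serpina3g, Serpina3f, Serpina3h and Serpina3c in each of the 8 libraries, 1 bar a library (blue normal, red CML; r1 and r2 are replicates), each panel with its own axis from 0. Serpina3g was present throughout, from 23.67 to 222.8 RPKM, whereas Serpina3c was at 0 in the 4 normal libraries.

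The comparison of CML stem cells with normal HSCs asked which genes the leukaemic stem cells express at other levels. It was the contrast in whose view the members had been chosen. Serpina3f averaged 38.0 ± 6.44 RPKM in CML stem cells and 4.56 ± 1.24 in normal HSCs (SD, n = 3 each), a ratio of 8.33 and a fitted difference of 2.82 ± 0.20 (SE) on the log2(RPKM + 1) scale. Serpina3g averaged 194 ± 38.0 against 117 ± 26.2 RPKM, a ratio of 1.66 and a difference of 0.73 ± 0.21. Serpina3h averaged 2.61 ± 1.40 against 0.0555 ± 0.0165 RPKM, with 311 reads against 7, and differed by 1.69 ± 0.29. Serpina3c averaged 1.11 ± 0.238 RPKM against 0, which was 11.8 times the highest floor of 3 reads in a normal HSC library, and differed by 1.07 ± 0.11.

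All 4 members that passed the minimum were higher in each CML stem library than in each normal HSC library, as were 6.92% of all 12561 genes tested. By limma's adjusted p under 0.05, 3 of the 4 (Serpina3c, Serpina3f and Serpina3h) were called higher in CML stem cells, where 1.18% of all genes were called higher and 1.16% lower. The call of Serpina3h was lost without any 1 of the LT-HSC, ST-HSC or LT-CML libraries, leaving 2 members called, whereas all 4 were called once the fit also allowed for LT and ST cells. Since the choice of members used this contrast, nothing is read from these counts. The median difference of the 4 was 1.38, beside -0.041 over all genes tested. LT-CML stem cells and LT-HSCs, which are among the same libraries, differed by 2.88 ± 0.23 for Serpina3f, 2.06 ± 0.15 for Serpina3h, 1.15 ± 0.13 for Serpina3c and 0.74 ± 0.20 for Serpina3g. The first 3 of these were past the threshold, beside 0.939% of all genes called higher, and nothing is read from that count either. Without either LT-CML library limma called 0 members in that comparison (4 at an unadjusted p under 0.05), without either LT-HSC library it called 2, and with quantile normalization it called all 4.

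The ratio of CML to normal was given for each population. For Serpina3g it was 1.67 in LT cells, 1.62 (1.56 to 1.69, 95% counting interval) in ST cells and 1.79 (1.66 to 1.93) in KLS- cells. For Serpina3f it was 8.48 in LT cells, 7.94 (6.76 to 9.39) in ST cells and 14.5 (9.67 to 22.4) in KLS- cells. For Serpina3h it was 59.5 in LT cells, from 272 reads against 5 (25.9 to 190), and 19.7 in ST cells, from 39 reads against 2 (5.09 to 168). In KLS- cells Serpina3h was at 3.41 times the floor of the normal library. Serpina3c was at 13.8 times the highest floor of the normal libraries in LT, 9.41 times in ST and 1.89 times in KLS- cells. These ratios to a floor leave out the counting error of the CML level. For Serpina3c in CML-KLS- cells its 95% interval (0.0538 to 0.3869 RPKM) reached below the normal floor of 0.0875 RPKM. With 1 library a group in ST and KLS- cells, these ratios had no replicate check, and their differences between populations were not tested.

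**Figure D3:**
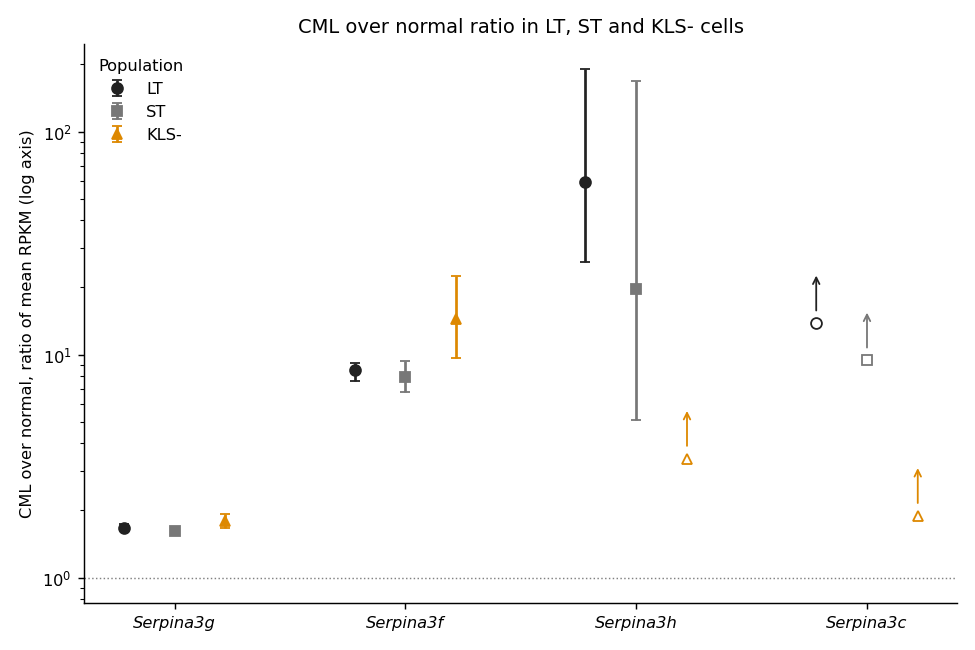
Ratio of mean RPKM in CML over normal cells (log axis) for 4 members in LT (circles), ST (squares) and KLS- cells (triangles). Bars are 95% counting intervals from the estimated reads, and the dotted line marks a ratio of 1. Open symbols with an arrow are ratios to the floor of 3 reads where the normal library was at 0, with no interval. Serpina3g lay at 1.62 to 1.79 in the 3 populations, and Serpina3f at 7.94 to 14.5.

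In CML-KLS- against normal KLS- cells, with 1 library each, Serpina3f was the 1 member of the 4 whose log2(RPKM + 1) was higher by over 1. Of all genes tested, 1.85% were. It had 330 reads against 26, and Serpina3g had 1740 reads against 1106.

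Within a library, the members kept fixed proportions to different degrees. Serpina3f was at 19.4% and 19.2% of the Serpina3g level in LT-CML stem cells, 20.4% in ST-CML stem cells and 19.1% in CML-KLS- cells. In normal libraries it was at 2.63% and 5.29% in LT-HSCs, 4.17% in ST-HSCs and 2.36% in KLS- cells. The CML values lay close together although the level of Serpina3g itself ran from 42.36 to 222.8 RPKM across the same libraries. Of the Serpina3f windows of 100 bases, 0.9% occurred exactly in a Serpina3g transcript and 11.6% did so with at most 2 mismatches. The part of the Serpina3f values that came from reads of Serpina3g was not tested.

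Serpina3h did not keep such a proportion. It was at 8.49% and 7.86% of the Serpina3f level in LT-CML stem cells, at 3.33% in ST-CML stem cells and at 3.06% in CML-KLS- cells. Serpina3c was at 2.50% and 3.40% of Serpina3f in LT-CML stem cells, 2.88% in ST-CML stem cells and 2.05% in CML-KLS- cells, the last from 5 reads.

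**Figure D4:**
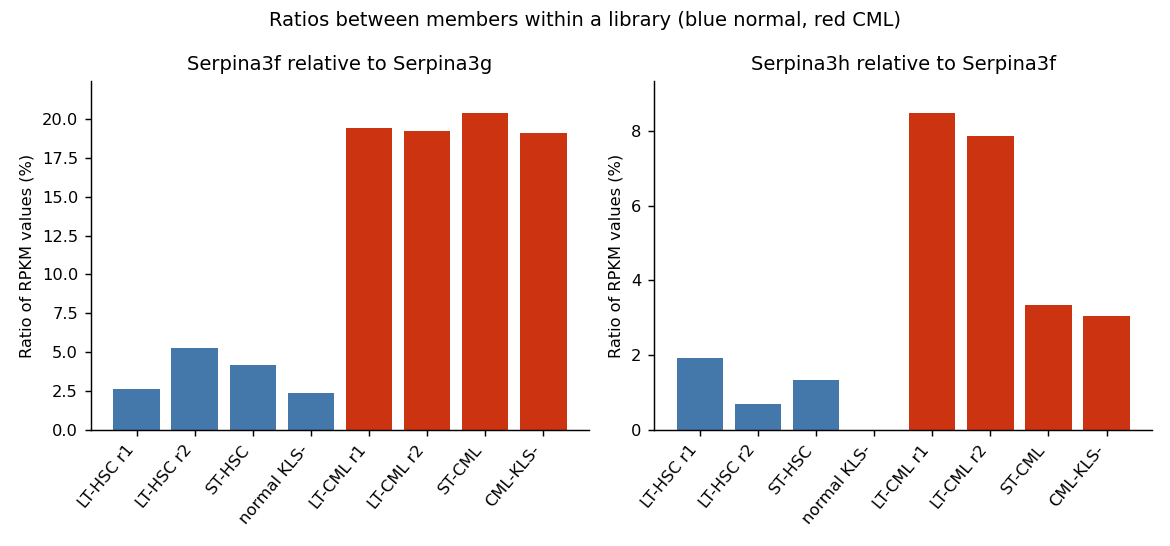
RPKM of Serpina3f as a percentage of Serpina3g (left) and of Serpina3h as a percentage of Serpina3f (right) in each of the 8 libraries (blue normal, red CML). The left ratio lay between 19.1% and 20.4% in the 4 CML libraries and between 2.36% and 5.29% in the normal ones. The right one was over 7% in LT-CML libraries and near 3% in the other CML libraries.

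Normal stem cells were compared with normal KLS- progenitors to see how the genes follow the step out of the stem cell gate, a contrast that did not serve to choose the members. Serpina3g was higher in normal HSCs by 2.16 ± 0.23 (SE) on the log2(RPKM + 1) scale (limma, Benjamini-Hochberg adjusted p = 0.00218). Serpina3f was higher by 1.77 ± 0.27 (limma, adjusted p = 0.00732). Each of the 3 normal HSC libraries lay above the KLS- library for both genes. Of all genes tested, 11.1% were called higher and 8.21% lower in HSCs. Serpina3h differed by 0.08 ± 0.17 (limma, adjusted p = 0.781), and at 0 to 3 reads a library no difference was detectable. Serpina3c was listed at 0 in all of these libraries and gave no comparison. KLS- cells were represented by 1 library, so its spread was taken from the other populations. The erythroid, T and NK, macrophage, and basophil and mast marker sums given above were higher in that library than in each normal HSC library, and their part was not tested. Of the genes summed, Hbb-b1, Cd4, Cd3g, Klrb1c, C1qa, C1qb and Gata2 went the other way, each lower there than in each normal HSC library.

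In CML the same step was a description. LT-CML stem cells held 5.15 times (4.61 to 5.79) the Serpina3f level, 5.09 times (4.86 to 5.36) the Serpina3g level, 7.37 times (3.01 to 23.2) the Serpina3c level and 13.8 times (7.18 to 30.6) the Serpina3h level of CML-KLS- cells. The intervals cover counting error alone.

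LT and ST stem cells were compared across disease. None of the 4 members passed limma's adjusted threshold in either direction, where 2.28% of all genes were called higher and 1.81% lower in LT cells. Unadjusted p-values were under 0.05 for 2 of the 4, Serpina3g and Serpina3h. Serpina3g was higher in LT cells by 0.48 ± 0.15 (limma, adjusted p = 0.125), and the LT libraries lay above the ST library in both normal and CML cells. It passed the threshold with quantile normalization (limma, adjusted p = 0.0387) and without the LT-HSC library of 6 months (limma, adjusted p = 0.0451), and the range over all settings was 0.0387 to 0.577. Serpina3h differed by 0.56 ± 0.23 (limma, adjusted p = 0.246). That difference was 0.01 without the ST-CML library (limma, adjusted p = 0.996) and 1.12 without the ST-HSC library (limma, adjusted p = 0.0749), and the adjusted p ranged from 0.0653 to 0.996 over all settings. The difference was 0.34 ± 0.18 for Serpina3f (limma, adjusted p = 0.378) and 0.12 ± 0.12 for Serpina3c (limma, adjusted p = 0.655). Serpina3c was at 0 in every normal HSC library, and Serpina3h had 2 or 3 reads in each. Normal cells could thus show no LT to ST difference for Serpina3c and hardly any for Serpina3h. For both, the fitted difference rests on the CML libraries, through which they passed the minimum. In CML, Serpina3h had 272 reads over 2 LT-CML libraries against 39 in the ST-CML library, a ratio of 3.32 (2.38 to 4.80). That interval covers counting error alone, and with 1 ST-CML library the spread between libraries is not in it.

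The 2 LT-HSC libraries came from mice of different ages and had no replicate at either age. From 2 to 6 months, Serpina3f was 1.57 times as high (1.31 to 1.90) and Serpina3g 0.782 times as high (0.755 to 0.809). Summed neutrophil markers were at 481 RPKM in the first library and 3870 RPKM in the second, and their part in these ratios was not tested.

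The upstream stretches of Serpina3f and Serpina3g are shown because these 2 neighbours carry the letters TTCNNNGAA, the core that STAT factors bind, before their starts. Each stretch was cut with equal flanks around the motif, so the place of the motif within it is set by the cut. Any part of the motif in the levels of these genes was not tested. RefSeq windows (GRCm38.p6, 250 bases before to 50 after a start site) were found for 4 members, Serpina3c, Serpina3f, Serpina3g and Serpina3n. Capitals mark the 9 letters of the motif, which reads the same on both strands.
Serpina3f: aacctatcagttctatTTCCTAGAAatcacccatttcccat
Serpina3g: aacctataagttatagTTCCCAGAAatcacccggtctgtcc

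The first stretch lay at chr12:104214407-104214447 and the second at chr12:104236098-104236138, both on the plus strand of GRCm38.p6. The motif began 121 and 210 bases before the 2 annotated starts of Serpina3f and 33 bases before that of Serpina3g. No copy was found before the starts of Serpina3c and Serpina3n, and bases after a start were not counted for these genes. Among Serpina3 genes that are not members, the motif was also found before the start of Serpina3i, at -102. It was not found before those of Serpina3a, Serpina3b and Serpina3j. Of all 32851 windows, 8.3% held the motif. That share may include copies after a start, so it is not set against the counts before a start. A match is a description of the letters and not of a bound site.

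Other serpins were counted from lists. Of 19 other clade A serpins, 15 were in the files and 1, Serpina1a (alpha-1 antitrypsin), passed the minimum. None had a mean above 1 RPKM, and Serpina1a was called in none of the 3 comparisons tested by limma, with 0 at an unadjusted p under 0.05. Of 27 clade B and other serpins, 13 were tested. By limma's adjusted p, none of the 13 was called between CML stem cells and normal HSCs, with a median difference of -0.08 (1 at an unadjusted p under 0.05), and none between LT and ST cells, with a median of -0.17 beside 0.007 over all genes (7 at an unadjusted p under 0.05). Between normal HSCs and KLS- cells, 5 (Serpinb6a, Serpinb6b, Serpinb8, Serpinb9 and Serpini1) were called higher in HSCs and 2 (Serpinb1a and Serpine2) lower. Of all genes tested, 11.1% were called higher and 8.21% lower. The median of the list was 0.46 beside 0.083 over all genes.

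Serpinb1a, an inhibitor of neutrophil elastase and cathepsin G, had the highest mean of these, at 63.38 to 155.9 RPKM in stem cells and 305.9 and 316 RPKM in KLS- cells. Serpinf1, the gene of the secreted factor PEDF, came next, at 17.61 to 28.01 RPKM in stem cells and 17.05 and 17.21 RPKM in KLS- cells, and was called in none of these comparisons. Serpinb6a followed, at 7.144 to 23.13 RPKM in stem cells and 3.083 and 3.467 RPKM in KLS- cells.

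Serine and cysteine proteases, classes with members that serpins can inhibit, were measured in the same libraries. Whether each listed enzyme is a target of these serpins was not tested. Of 18 listed, 15 were tested. Between CML stem cells and normal HSCs, Ctsh (cathepsin H) alone was called, and it was lower in CML (7.66 to 10.47 RPKM in normal HSCs and 2.44 to 4.397 RPKM in CML stem cells). Of all genes tested, 1.18% were called higher and 1.16% lower there. The median difference of the list was 0.55. Between LT and ST cells, Ctss (cathepsin S) alone was called, lower in LT cells, beside 1.81% of all genes called lower. The median was -0.42. Between normal HSCs and KLS- cells, Klk8 was called higher in HSCs and Prtn3, Gzmb, Cma1, Mcpt8 and Ctsh lower. Of all genes tested, 11.1% were called higher and 8.21% lower. The median of the list was -0.62 beside 0.083 over all genes.

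The 3 proteases with the highest mean were neutrophil granule enzymes, and they varied widely among stem cell libraries. Ela2, the gene of neutrophil elastase, was at 9.716 to 125.2 RPKM in normal HSCs. It was at 2.625 and 1120 RPKM in the LT-CML libraries and 626.6 RPKM in ST-CML stem cells, so that replicates of 1 population lay at both ends. Prtn3 (proteinase 3) was at 62.79 to 135.5 RPKM in normal HSCs and 86.95 to 293.4 RPKM in CML stem cells. Ctsg (cathepsin G) was at 2.018 to 12.41 and at 0.4339 to 122.8 RPKM. Serpina3g and Serpina3f differed little between the same LT-CML libraries (222.8 and 208.2, 43.2 and 40.03 RPKM).

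Of 21 regulators linked to NF-kappaB, STAT and glucocorticoid signalling, all were tested. Tsc22d3, a glucocorticoid-induced gene also known as Gilz, was the 1 called between CML stem cells and normal HSCs. It was at 98.54 to 117.9 RPKM in normal HSCs and 163.1 to 252.4 RPKM in CML stem cells, higher by 0.96 ± 0.18 (limma, adjusted p = 0.0387). The median of the list was -0.09. None was called between LT and ST cells by limma's adjusted p, with a median of -0.05 (5 at an unadjusted p under 0.05). Between normal HSCs and KLS- cells, 7 were called higher in HSCs and 2 lower, beside 11.1% and 8.21% of all genes, with a median of 0.45 beside 0.083 over all genes.

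The 7 were Relb, Nfkbia, Stat3, Socs3, Cebpb, Per1 and Irf1. Socs3, a feedback inhibitor induced by STAT3, was higher in normal HSCs by 2.11 ± 0.32 (limma, adjusted p = 0.00703). Irf1, a transcription factor induced by interferon, was higher by 1.89 ± 0.21 (limma, adjusted p = 0.0024), and Nfkbia, the inhibitor of NF-kappaB, by 1.53 ± 0.34 (limma, adjusted p = 0.0238). Stat3, Relb, Per1 and Cebpb were higher by 0.88 to 1.35. Ifngr1, a chain of the interferon gamma receptor, and Cebpd were lower, by -1.58 ± 0.31 and -1.19 ± 0.23 (limma, adjusted p = 0.0163 and 0.0159).

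The genes whose levels followed each member most closely were found by Pearson's r of log2(RPKM + 1) over the 8 libraries, among 10030 genes with a mean of at least 1 RPKM. With 8 libraries of 6 populations, such values describe a shared order of populations and no more. Nearest to Serpina3g were Ptgs1 (cyclooxygenase 1, r = 0.986), Nrgn (0.982), Nudt6 (0.981), Cish (an inhibitor of cytokine signalling, 0.978) and Usp54 (0.978). Ptgs1 was at 32.14 to 44.98 RPKM in normal HSCs, 43.99 to 61.96 in CML stem cells and 12.86 and 21.07 in KLS- cells.

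Nearest to Serpina3f were Hipk1 (a nuclear kinase, r = 0.987), Cpeb4 (0.979), Ap1s3 (0.977), 1500011B03Rik (0.973) and Ubtd2 (0.972). Hipk1 was at 12.89 to 15.09 RPKM in normal HSCs, 27.72 to 33.42 in CML stem cells and 7.158 and 18.33 in KLS- cells. Nearest to Serpina3h were Ttc23 (0.96), Ubtd2 (0.943), H2-T24 (0.94), Tmem82 (0.925) and Atp6v0e2 (0.924). Atp6v0e2, a subunit gene of the proton pump, was at 0 to 0.1743 RPKM in normal HSCs and 12.62 to 17.56 RPKM in CML stem cells. Between members, r was 0.959 for Serpina3h with Serpina3c, 0.923 for Serpina3f with Serpina3c, 0.891 for Serpina3f with Serpina3h, 0.785 for Serpina3f with Serpina3g, 0.672 for Serpina3g with Serpina3h and 0.642 for Serpina3g with Serpina3c.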

How the data were processed

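RNA of 6 sorted bone marrow populations (8 libraries) was amplified with an oligo-dT primed method for small inputs and sequenced in paired ends. The authors mapped the reads to mm9 with SeqNova CS and deposited 1 RPKM value (a read count scaled to gene length and sequencing depth) for each of 20207 genes and each library. The gene models, the counting step, its use of strand and its treatment of reads that fit several genes are not given in the sources used here.

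Values were used as deposited. Those 12561 genes whose RPKM summed to more than 1 across libraries were tested on log2(RPKM + 1) with limma 3.58.1 in R 4.3.3, with an intensity trend and Benjamini-Hochberg adjustment over all genes tested, at a threshold of 0.05. The pseudocount of 1 makes differences of weakly expressed genes look smaller than they are. CML stem cells were compared with normal HSCs in a fit of those 6 libraries, and LT with ST cells in the same libraries with disease as a covariate. Contrasts of LT-CML stem cells with LT-HSCs, and of normal HSCs with normal KLS- cells, came from a joint fit of the 8 libraries in which each of the 6 populations had its own mean. The fit was tested on simulated data.

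Depth was recovered from the spacing of low values. Of 4110 genes examined (values under 0.5 RPKM), 91.7% had values on a common step, which was taken as 1 read. The most frequent depth, shared by 1196 of 3486 genes with a step and a length, was used. By it the libraries came to 17.8 M to 23.9 M reads. A member's reads were its RPKM times depth and gene length. The length was the one implied by the member's own step where there was one (Serpina3c, Serpina3h and Serpina3n), a choice made after seeing the data. For Serpina3k and Serpina3m the only value above 0 was taken as 1 read. Otherwise the length was the exon union. Intervals (95%, exact Poisson, or exact binomial for ratios) and floors of 3 reads cover counting error only. PCR copies could not be told from separate molecules.

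Sequences were read by Python 3.11.15 from mm9 with its GENCODE annotation, and promoters from RefSeq (GRCm38.p6). The members and gene lists were chosen with earlier results of these data known. Values are given for all 7 members, for other clade A serpins with a mean above 1 RPKM, for the 3 other serpins and the 3 proteases with the highest mean, for regulators past the threshold, and for the 5 genes most like each member with a mean of at least 1 RPKM. Alternatives were another pseudocount (0.1), other minimums, quantile and upper-quartile scaling, other covariates and sample sets, and leaving out each library.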

Additional observations from a re-analysis of the deposited data

How the results depend on the processing

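No paired analysis was possible because the groups share no replicate numbers that mark a common animal or day. The differences of the members between CML and normal cells kept their sign in every setting. Over the settings, CML stem cells differed from normal HSCs by 2.72 to 3.05 for Serpina3f, 0.57 to 0.90 for Serpina3g, 1.46 to 3.95 for Serpina3h and 0.99 to 3.58 for Serpina3c (log2), the highest values of the last 2 with a pseudocount of 0.1. All 4 stayed separated between CML stem and normal HSC libraries with quantile and upper-quartile scaling. Once libraries are separated, leaving 1 out can change neither the separation nor the sign, so nothing is read from those settings. Serpina3f and Serpina3g were higher in normal HSCs than in KLS- cells in every setting, but with no minimum on RPKM their limma adjusted p was 0.102 and 0.0819.

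The number of genes called depended more on the setting. For CML stem cells against normal HSCs it was 148 higher and 146 lower, 251 and 292 with cell type as a covariate, and 89 lower with no minimum. Leaving out 1 library gave 62 to 109 higher and 46 to 117 lower. For LT-CML stem cells against LT-HSCs (118 higher, 99 lower), limma called 0 higher and 0 lower with no minimum (791 and 974 at an unadjusted p under 0.05), and 60 lower with upper-quartile scaling. Leaving out 1 library gave 5 to 30 higher and 1 to 44 lower. For LT against ST cells (286 higher, 227 lower), limma called 0 and 0 with no minimum (1278 and 1297 at an unadjusted p under 0.05), and 128 and 84 without disease as a covariate. Leaving out 1 library gave 23 to 444 higher and 23 to 268 lower, the lowest without the ST-CML and the ST-HSC library. For normal HSCs against KLS- cells (1389 higher, 1031 lower), limma called 0 and 5 with no minimum (2642 higher at an unadjusted p under 0.05), 330 and 236 in the 4 normal libraries alone, and 921 higher with quantile normalization. Leaving out 1 library gave 994 to 1427 higher and 673 to 1184 lower. The cause was not tested.

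Reads behind Serpina3h came to 327 with the length used, 230 with the exon union and 198 with the longest transcript, those behind Serpina3c to 113, 148 and 148, and those behind Serpina3g to 45647, 45647 and 35690. Depth limits Serpina3k, Serpina3m and Serpina3n, and Serpina3h and Serpina3c in normal cells.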

Other observations

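Other genes around the cluster were low in these cells. Within 500 kb on each side of the Serpina3 genes, the files held 18 genes that were no members, and 2 of them passed the minimum on RPKM. These were Serpina1a and Dicer1, the gene of the enzyme that cuts precursors of microRNAs. Dicer1 averaged 1.87 RPKM in normal HSCs and 1.57 RPKM in CML stem cells, a difference of -0.16 on the log2(RPKM + 1) scale (limma, adjusted p = 0.727). Serpina1a averaged 0.161 and 0.203 RPKM (difference 0.05, limma, adjusted p = 0.908). Serpina3b, between Serpina3a and Serpina3c, averaged 0.0234 RPKM in normal HSCs and 0.119 RPKM in CML stem cells and fell below the minimum.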
